A study of Bombus terrestris with 8 samples.

Results

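MC1917 and MC1427 were 2 of the 65 miRNA entries listed for *Bombus terrestris* larvae, and 2 of the 15 entries to which the table gave no miRBase identifier. They were chosen by name, because bases 2 to 8 of each mature sequence are those known for an insect miRNA family, mir-14 for MC1917 and mir-263b for MC1427. Small RNA was sequenced from whole bodies of diploid female larvae on the worker path, harvested from 4 colonies. Early larvae were in instars 1 and 2 and late larvae in instar 4. Larvae of one colony and stage were pooled, giving 4 libraries for each stage with no treatment named. Summed over the list, early libraries held 204223 to 502540 miRNA reads and late libraries 45649 to 257161, with some overlap. The shallowest library was late replicate 4. In whole bodies, fewer cells of a type and less RNA per cell cannot be told apart.

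A miRNA is a small RNA of about the length of the sequences shown here, cut from one arm of a hairpin precursor and loaded into an Argonaute protein. The seed (bases 2 to 8) pairs with target transcripts, and miRNAs with the same seed are grouped as a family. In *Drosophila*, mir-14 restrains programmed cell death and acts in fat metabolism, in insulin-producing neurosecretory cells and in signaling through the ecdysone receptor. The *Drosophila* miRNAs mir-263a and mir-263b protect cells of sense organs from cell death, and the vertebrate relatives of this group (mir-183, mir-96 and mir-182) are known from sensory cells.

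The mature sequences are printed with the seed in capitals, since the family comparison rests on these 7 bases. T stands for U, as in the deposited table.
MC1917: tCAGTCTTtttctctctcctat
MC1427: cTTGGCACtggaagaattcacag
The seed CAGTCTT is the one known for mir-14, and the seed TTGGCAC is the one known for mir-263b. The related mir-263a is known to have another seed. These family seeds are given as background. For mir-263a, the paper reports substitutions within the seed among the bees it compared, and whether this bears on MC1427 was not examined. Mature sequences and precursors from other insects were not used here, so the match was not extended beyond base 8 by alignment, and a shared seed alone does not establish common descent. The match therefore holds for the seed and was not examined further.

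No other listed miRNA had either seed. Among the 63 other distinct mature sequences, 0 had the same bases 2 to 8 as MC1917 and 0 had those of MC1427. The count was again 0 for bases 2 to 7, and neither seed occurred anywhere within another mature sequence. The 64 distinct sequences of the list carried 57 different seeds, and 54 sequences had a seed of their own. Both miRNAs thus belonged to the majority without a seed relative in the list. The closest seeds differed at 2 of the 7 bases. For MC1917 these were the seeds of MC1211 and bte-mir-12, and for MC1427 those of bte-mir-124, a miRNA of nervous tissue in many animals, and bte-mir-92b. The last pair is shown with the seed in capitals, for comparison with MC1427.
bte-mir-124: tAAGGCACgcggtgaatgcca
bte-mir-92b: aATTGCACccgtcccggcctga

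The remaining bases set the miRNAs apart from each other. MC1917 was 22 nt long and began with T, like 41 of the 64 sequences, while MC1427 was 23 nt long and began with C, like 8 of the 64. Pyrimidines (C and T) made up 86.4% of the bases of MC1917, the highest share of the 64 sequences, against a median of 50.0%. A run of 5 T lies in MC1917 and includes the last bases of the seed. In MC1427 pyrimidines made up 43.5%. The GC content was 36.4% for MC1917 and 47.8% for MC1427, with a median of 45.5% over the list.

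Both entries had been predicted with miRCat, from a hairpin around mapped small RNAs. The precursors are printed with the mature sequence in capitals, to show the arm from which each was cut.
MC1917: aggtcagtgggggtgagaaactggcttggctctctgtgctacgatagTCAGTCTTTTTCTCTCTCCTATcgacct
MC1427: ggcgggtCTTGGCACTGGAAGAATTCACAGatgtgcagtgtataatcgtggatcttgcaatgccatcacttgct
The MC1917 precursor lies on scaffold Group7.1 of Bter_1.0 from 745314 to 745388 on the plus strand, and its mature sequence, from 745361 to 745382, lies on the 3′ arm. The MC1427 precursor lies on scaffold Group4.5 from 480123 to 480196 on the minus strand, and its mature sequence, from 480167 to 480189, lies on the 5′ arm. The table listed 0 other miRNAs on Group7.1 and 0 on Group4.5, so neither was part of a listed cluster. The genes around these positions were not analysed here.

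Folded with RNAfold, each precursor formed a single hairpin in which every paired base of the mature sequence was joined to the opposite arm. In MC1917, 19 of the 22 mature bases were paired, and the minimum free energy of the 75-nt precursor was −34.3 kcal/mol. In MC1427, 17 of the 23 mature bases were paired, and the energy of the 74-nt precursor was −30.6 kcal/mol. In both, 5 of the 7 seed bases were paired. The median energy of the 65 listed precursors was −34.0 kcal/mol, so both lay near the middle of the list by total energy. Per 100 nt the median was −41.9 kcal/mol, and MC1917 had rank 17 and MC1427 rank 36 from the lowest. The opposite arms of these hairpins were not among the listed mature sequences, and the share of reads from each arm could not be measured.

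**Figure D1:**
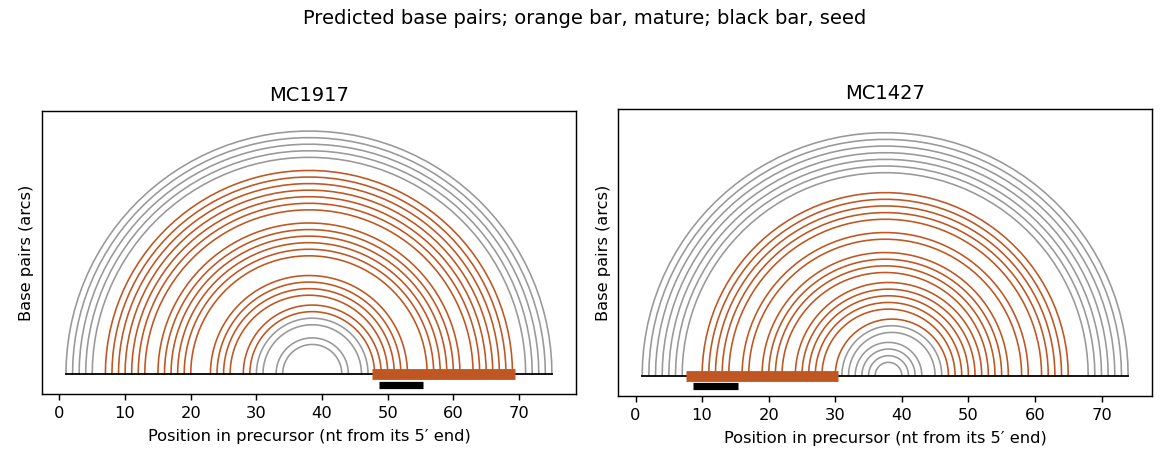
Base pairs predicted by RNAfold in the precursors of MC1917 (left, 75 nt) and MC1427 (right, 74 nt), as arcs over the position in nt from the 5′ end of the precursor. The orange bar is the mature sequence, orange arcs are its pairs (19 in MC1917 and 17 in MC1427), gray arcs are other pairs, and the black bar is the seed. The mature sequence of MC1917 is on the 3′ side and that of MC1427 on the 5′ side.

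The abundance of these miRNAs differed by 69.2-fold in total reads. MC1917 had 19999 reads over the 8 libraries and had rank 10 by this total among the 63 distinct sequences counted once each. It was the most abundant sequence without an identifier and held 69.3% of the 28847 reads on such sequences. The next of them, MC2238, had 5663 reads. MC1427 had 289 reads, rank 38 of 63, below the median of 473 reads for the list. Among the 14 distinct sequences without an identifier it had rank 6, above their median of 201 reads. Levels of different miRNAs also carry the efficiency with which each sequence is ligated and amplified, which was not measured.

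The raw counts of MC1917 in early larvae, given throughout in the order of replicates 1 to 4, were 4845, 4069, 2095 and 1956 reads, and those in late larvae were 1754, 3145, 1369 and 766 reads. As a share of the listed reads of each library, these were 0.965%, 0.810%, 1.03% and 0.713% in early larvae and 0.682%, 2.22%, 1.07% and 1.68% in late larvae. The early libraries thus lay close together, while late replicates 2 and 4 stood clearly above all of them, late replicate 3 narrowly above and late replicate 1 below. After normalization to CPM (counts scaled to 1000000 listed reads) with the TMM method of edgeR, the levels were 8299, 7072, 9188 and 7663 CPM in early larvae. In late larvae they were 7788, 25654, 12531 and 15042 CPM. On this scale 3 of 4 late libraries exceeded every early library, and late replicate 1 fell within the early range, so the stages overlapped.

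MC1917 averaged 8055 ± 906 CPM (SD, n = 4) in early and 15254 ± 7558 CPM (SD, n = 4) in late larvae. The log2 fold change of late against early larvae was 0.92 (standard error 0.31, 95% interval 0.27 to 1.57), a 1.89-fold higher level, and the adjusted p was 0.0271 in edgeR's quasi-likelihood test. Among all 62 miRNAs tested, 20 were called in either direction (32.3%) and 12 were called higher in late larvae (19.4%), so a call was common in this list. The median log2 fold change of the 62 was 0.18, and relative to it MC1917 was higher by 0.74. The call was easily lost, and 2 of the 8 fits with a library left out kept it. The weakest estimate, without early replicate 2, was a log2 fold change of 0.42 (adjusted p = 0.359, edgeR). Relative to the median of that fit it was 0.67, near the value of the main fit. Leaving out late replicate 2, the library with the highest level, gave 0.48 (adjusted p = 0.143, edgeR), and also 0.48 relative to the median. In all 15 alternative fits MC1917 remained higher in late larvae, and 6 of the 15 called it, with adjusted p from 0.0181 to 0.359. With the replicate number as a block, the estimate was 0.79 and was not called (adjusted p = 0.0669, edgeR). The colonies gave an early and a late library each, but the labels do not say which replicate numbers share a colony. A two-sided exact permutation test of the log2 levels of MC1917 alone gave p = 0.0857, where 0.0286 is the smallest p that 4 against 4 libraries allow.

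The spread of MC1917 between late libraries was larger than counting error. Its coefficient of variation was 11.2% in early and 49.5% in late larvae, whereas counting error alone would give 1.93% and 2.73%. The highest late library exceeded the lowest by 3.29-fold, against 1.30-fold in early larvae. In rank within a library, MC1917 was at 11 or 12 in every early library and between 8 and 12 in late libraries. The difference in spread between the stages was not tested.

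MC1427 was counted 47, 99, 34 and 25 times in the early libraries and 10, 40, 15 and 19 times in the late ones. These low counts were read from libraries of unequal depth, and late replicate 4, with 19 reads, was the shallowest. The normalized levels were 80.5, 172, 149 and 97.9 CPM in early larvae. In late larvae they were 44.4, 326, 137 and 373 CPM. Late replicate 1 was thus the lowest of all 8 libraries and late replicates 2 and 4 the highest, and the late libraries enclosed the whole early range.

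MC1427 averaged 125 ± 42.8 CPM (SD, n = 4) in early and 220 ± 155 CPM (SD, n = 4) in late larvae. The log2 fold change of late against early larvae was 0.74 (standard error 0.60), with an adjusted p of 0.325 in edgeR's quasi-likelihood test. MC1427 was therefore not among the called miRNAs, and its fold change had a 95% interval from 0.689-fold to 4.04-fold. The 1.89-fold change of MC1917 lay within this interval, so the data do not show that MC1427 stayed constant. None of the 15 alternative fits called it (edgeR, DESeq2 or limma, adjusted p from 0.267 to 0.741), and in all 15 the estimate was above 0.

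Counting error was a larger part of the spread for MC1427 than for MC1917. It alone would give a coefficient of variation of 15.3% in early larvae and 25.0% in late larvae, while the observed values were 34.3% and 70.5%. In late replicate 1 the 10 reads allowed 21.3 to 81.7 CPM (95% Poisson interval, counting error only), and in late replicate 2 the 40 reads allowed 233 to 444 CPM. In late replicate 4 the interval was 225 to 583 CPM. In early larvae the intervals of replicates 1 and 2 were 59.2 to 107 and 140 to 209 CPM. The rank of MC1427 within a library ran from 31 to 38 in early larvae and from 30 to 48 in late larvae.

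**Figure D2:**
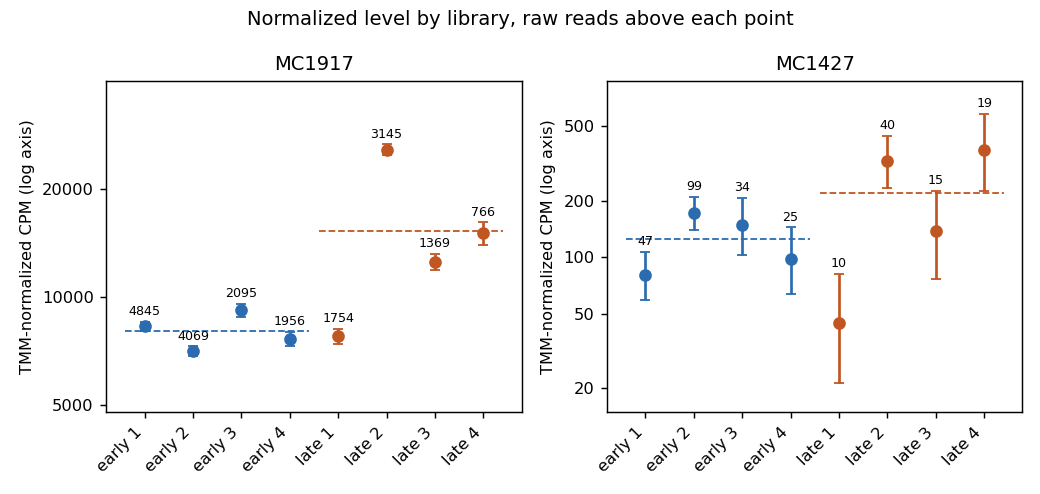
TMM-normalized CPM (log axis) of MC1917 (left) and MC1427 (right) in each early (blue) and late (orange) library, with 95% Poisson intervals for counting error as bars, the raw read count above each point and the stage mean as a dashed line. For MC1917, 3 late libraries lie above all early libraries and late replicate 1 lies among them at 7788 CPM. For MC1427 the late libraries run from 44.4 to 373 CPM and enclose the early ones.

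**Figure D3:**
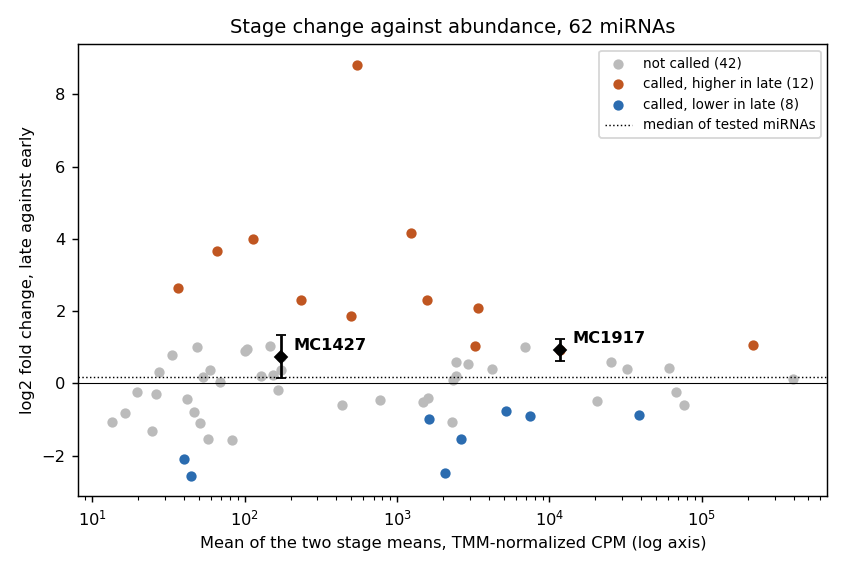
Log2 fold change of late against early larvae over mean abundance (the mean of the early and the late mean, TMM-normalized CPM, log axis) for the 62 miRNAs tested. Points in orange (12) and blue (8) were called higher and lower in late larvae, the dotted line is the median of 0.18, and black diamonds with standard error bars mark MC1917 at 0.92 and MC1427 at 0.74.

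The ratio of MC1917 to MC1427 within a library does not depend on how libraries are scaled. It was 103, 41.1, 61.6 and 78.2 in the early libraries and 175, 78.6, 91.3 and 40.3 in the late ones. The stages overlapped. The mean log2 ratio was 6.07 ± 0.56 (SD, n = 4) in early and 6.40 ± 0.87 (SD, n = 4) in late larvae, and the difference of 0.33 was smaller than either SD (two-sided exact permutation test, p = 0.571). The stage changes of the miRNAs were thus not shown to differ from each other, although MC1917 was called and MC1427 was not.

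The levels of these miRNAs were high and low in the same late libraries. Across the 8 libraries the log2 levels had a Pearson r of 0.73 (exact permutation test, p = 0.0395) and a Spearman rho of 0.52 (exact permutation test, p = 0.197). The permutations did not keep the stages apart, so a stage change shared by both miRNAs enters r and p. This was the only pair tested. With 1 library left out, r ran from 0.66, without late replicate 2, to 0.84. Without late replicates 2 and 4, the libraries farthest from the median level of MC1917, r was 0.25 over 6 libraries. The relation thus came largely from them, although leaving out the farthest libraries by itself narrows the range of levels. Within stages r was 0.87 over the late and −0.17 over the early libraries, with 4 libraries each. Both levels are divided by the same library size, which the points share.

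Of the 61 other tested miRNAs, the 3 whose log2 levels over the 8 libraries were most like those of MC1917 were bte-mir-125 (r = 0.83), bte-mir-3759 (r = 0.77) and MC295 (r = 0.75). MC1427 had rank 7 of 61 for MC1917. For MC1427 the 3 most alike were bte-mir-125 (r = 0.79), bte-mir-279a (r = 0.79) and MC1917. The miRNA bte-mir-125, which in *Drosophila* is transcribed with let-7 at the onset of metamorphosis, thus led both lists. The late profile of bte-let-7 was another, at 6403, 3401, 4778 and 2965 CPM in replicates 1 to 4. Late replicate 1 had its highest late level but the lowest late level of bte-mir-125, at 71.0 CPM. Its counts were 40, 53, 15 and 11 in the early libraries and 16, 22, 11 and 9 in the late ones, and bte-mir-3759 had at most 10 reads in a library, so these profiles carry large counting error. The median r over the 61 was −0.11 for MC1917 and −0.29 for MC1427. These values are descriptions over libraries that share their depth and stage.

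In total reads, MC1917 stood between bte-mir-315 with 48854 reads and bte-mir-306 with 18362 reads. In *Drosophila*, mir-315 is known as an activator of Wingless signaling, and mir-306 lies in one cluster with mir-9b and mir-79. The order of MC1917 and bte-mir-306 turned with the stage. In raw reads MC1917 was below bte-mir-306 in 4 of 4 early libraries and above it in 4 of 4 late libraries. The ratio of MC1917 to bte-mir-306 was 0.894, 0.766, 0.955 and 0.717 in the early libraries and 1.62, 3.78, 2.27 and 4.05 in the late ones. The stages did not overlap in this ratio. They also did not overlap in the normalized levels of 32.3% of the 62 single miRNAs, bte-mir-306 among them. The share among ratios was not counted. Its mean log2 value was −0.27 ± 0.19 (SD, n = 4) in early and 1.45 ± 0.63 (SD, n = 4) in late larvae. This ratio was singled out after its values were seen, so no test is given. Part of it came from bte-mir-306, which was lower in late larvae (a log2 fold change of −0.90 with a standard error of 0.24, adjusted p = 0.0129 by edgeR) and was called in all 15 alternative fits. Toward bte-mir-315 the mean levels came closer, from 8055 ± 906 against 23841 ± 4037 CPM (SD, n = 4) in early larvae to 15254 ± 7558 against 17069 ± 3150 CPM (SD, n = 4) in late larvae. In raw reads MC1917 was above bte-mir-315 in 0 of 4 early and 2 of 4 late libraries. In late replicate 1 it was still far below, at 7788 against 20824 CPM. In late larvae these neighbors did not differ beyond their spread.

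MC1427 stood between bte-mir-iab-4, from the Hox cluster, with 292 reads and bte-mir-2796 with 271 reads. None of these neighbors differed beyond the spread in either stage. The level of bte-mir-iab-4 averaged 121 ± 27.6 CPM (SD, n = 4) in early and 134 ± 76.3 CPM (SD, n = 4) in late larvae. That of bte-mir-2796 was 98.9 ± 20.6 and 194 ± 161 CPM (SD, n = 4 each), with adjusted p values of 0.732 and 0.206 for the stage change in edgeR's quasi-likelihood test.

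Both families restrain cell death in *Drosophila*, and other miRNAs listed for such a role there were compared with them. Apart from MC1917 and MC1427, 5 of them were tested, of which 1 was called higher and 3 lower in late larvae (over all 62 miRNAs, 19.4% and 12.9%), and their median log2 fold change was −0.86 against 0.18 over all 62. Like MC1917, bte-mir-11 was called higher. It limits cell death driven by the E2F1 transcription factor in *Drosophila*, and its log2 fold change was 2.10 (edgeR adjusted p = 0.0129, standard error 0.58). The late levels of bte-mir-11 were 13916, 5367, 1400 and 1394 CPM in replicates 1 to 4, against 1093 to 1479 CPM in early larvae. Without late replicate 1 its log2 fold change was 0.45 (edgeR adjusted p = 0.350), in a fit whose median was −0.51. Late replicate 1, the highest library for bte-mir-11, had the lowest late level of MC1917. The lower ones were bte-mir-2-1 (−2.48, standard error 0.34, edgeR adjusted p = 7.30e-05) and bte-mir-13b (−0.99, standard error 0.29, edgeR adjusted p = 0.0168), whose family targets the cell death genes reaper, grim and sickle in *Drosophila*. The growth regulator bte-bantam, which represses the cell death gene hid there, was also lower (−0.86, standard error 0.24, edgeR adjusted p = 0.0129). The remaining one of the 5, bte-mir-277, was not called (0.09, standard error 0.28, edgeR adjusted p = 0.774). Its listed role in cell death was not examined here. Called miRNAs of this list therefore went in both directions.

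A second list held miRNAs tied to steroid hormone signaling and the timing of metamorphosis in insects. Apart from MC1917, 5 of them were tested, of which 1 was called higher (bte-let-7), 1 lower (bte-bantam) and 3 not at all, where 32.3% of all 62 were called in either direction. Their median log2 fold change was 0.89 against 0.18 over all 62. For bte-let-7, which accumulates at metamorphosis in *Drosophila*, the log2 fold change was 1.05 (standard error 0.32, edgeR adjusted p = 0.0181). Without late replicate 1 it was 0.36 (edgeR adjusted p = 0.415), but the median of all miRNAs in that fit was also lower, at −0.51. Of 5 tested miRNAs known from particular tissues, including bte-mir-1 and bte-mir-133 of muscle and bte-mir-124 of nervous tissue, 0 were called by edgeR, 0 had an unadjusted p under 0.05 and 0 were called by DESeq2 or limma. Over all 62, edgeR called 20, DESeq2 25 and limma 20, and 5 miRNAs are few to set against these. The log2 fold changes of these 5 ran from −0.45 to 0.41. Among the 12 other tested sequences without an identifier, 4 were called higher and 1 lower, against 19.4% and 12.9% of all 62, and their median log2 fold change was 0.28 against 0.18. The change of MC1917 was smaller than that of each of these 5, and it had the most reads.

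**Figure D4:**
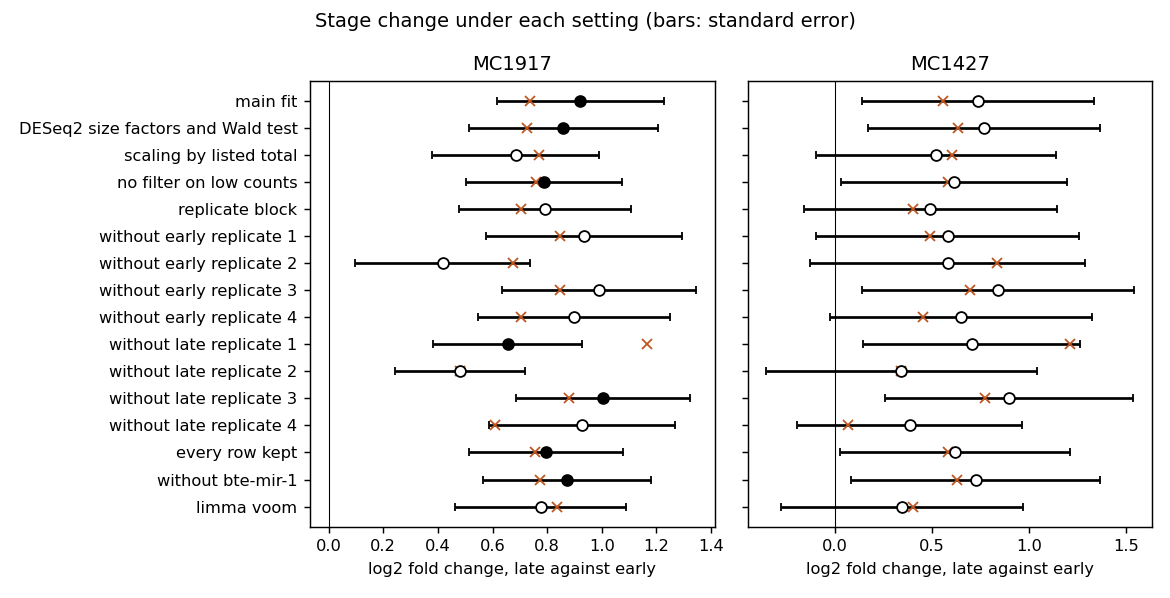
Log2 fold change of late against early larvae (circles, with standard error bars) for MC1917 (left) and MC1427 (right) in the main fit and the 15 alternatives, filled where the adjusted p was under 0.05. Orange crosses give the same value relative to the median of all miRNAs in that fit. MC1917 ranged from 0.42 to 1.00 and was called in 6 alternatives, and MC1427 ranged from 0.34 to 0.90 and was called in none.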

How the data were processed

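After pooling 8 small RNA libraries and mapping them to the genome, the authors predicted precursors with miRCat. The deposited values are raw counts of reads per mature miRNA and library, not normalized. The aligner, the mismatches allowed and the treatment of end variants are not given in the sources used here, although each of these could shift the counts. The row with blank cells (1) was left out and a mature sequence listed at more than one locus was counted once, leaving 63 sequences. Of these, the 62 with a total of at least 10 counts entered one quasi-likelihood fit (edgeR 4.0.16, R 4.3.3) on TMM-scaled library sizes, with a term for stage, and p-values were adjusted over all 62 by the Benjamini-Hochberg method. Standard errors were approximated from the F statistic (|log2 fold change|/√F). This test was tried on 20 simulated data sets with 1 dispersion for all miRNAs and a log2 change of 2 in 15 of 62. It recovered 95.7% of the changes, and 2.71% of its calls were false. Changes as small as that of MC1917 were not simulated, so their recovery is not known. Ratios within a library were tested by exact permutation over libraries. Precursors were folded with RNAfold 2.7.2. All pairs of replicates differed by more than sampling noise (chi-square per degree of freedom from 19.0 to 229).

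Alternatives were DESeq2 1.42.0, limma 3.58.1 with voom, scaling by the listed total, no filter, a block for the replicate number, leaving out each library, every row kept, and bte-mir-1 left out. Named miRNAs were those sharing a seed, the 3 most similar profiles, the neighbors in total reads and called members of the lists. The miRNAs with the closest seeds, MC2238 and the uncalled list members were named after their values were seen. The members and lists were chosen with earlier results of these data known.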

Additional observations from a re-analysis of the deposited data

How the results depend on the processing

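MC1917 kept its direction in all 15 alternative fits and lost its call in 9. Its log2 fold change was 0.68 with scaling by the listed total (edgeR adjusted p = 0.0828), 0.79 with the replicate number as a block (edgeR adjusted p = 0.0669) and 0.78 with limma voom (adjusted p = 0.0743), and ran from 0.42 to 1.00 with a library left out. Relative to the median of each fit it stayed between 0.48 and 1.17. For MC1427 (0.34 to 0.90 with a library left out, 0.49 with the block) no alternative made a call. Relative to the median it ran from 0.07, without late replicate 4, to 1.21. The number of miRNAs called, 20, ran from 15 to 29 with a library left out and was 18 with the block. Libraries with the same replicate number did not deviate together (correlations of −0.08, 0.03, 0.02 and −0.09), and which numbers share a colony is not known from the labels, so a pairing by colony was not tested. The log2 ratio of MC1917 to MC1427 changed by −0.024 to 0.68 with a library left out, the negative value without late replicate 1, and by 0.33 with the block. The log2 ratio of MC1917 to bte-mir-306 changed by 1.54 to 1.98 with a library left out. Per 100 nt the folding energies were −45.7 for MC1917 and −41.4 kcal/mol for MC1427, and 2 of the 3 most similar profiles of each were the same by Spearman correlation. The causes of these shifts were not tested. Depth limits MC1427 most, with 10 to 40 reads in a late library.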
